A study of Mus musculus with 6 samples.

Results

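The 8 genes described here encode cytokines that myeloid cells make and that T cells, NK cells and B cells receive: Il12b, Il27, Ebi3, Il15, Tnfsf13b, Il6, Tnf and Il10. They were taken by gene symbol from the 32285 genes of single-cell RNA-seq count matrices of 6 libraries. Their UMIs (unique molecular identifiers, each standing for 1 captured mRNA molecule) were summed in each library over 30039 myeloid cells of the 51633 cells kept, out of 57078 deposited. A cell was kept with at least 250 genes and at most 5% mitochondrial UMIs, and was called a neutrophil, monocyte, macrophage or dendritic cell from fixed marker genes, none of which is one of the 8 cytokines.

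Each library came from 1 mouse and each group held 1 library, so no difference between 2 groups had a replicate check, and no test was run. A fit across all 6 libraries, which would assume that the antibody acts alike with and without 2DG or 2FF, was not run either. Female C57BL/6 mice, 6 to 8 weeks old, had KPCA cells injected into the ovarian bursa. KPCA is an ovarian cancer line of the mouse, proficient in homologous recombination, with altered Trp53 and with overexpressed Ccne1 and Akt2, and all 6 groups carried it. The control mouse received solvent and rat IgG. The 2DG mouse received 2-deoxy-D-glucose, an inhibitor of glycolysis and of glycosylation, by intraperitoneal injection from day 9. The 2FF mouse received 2-fluorofucose, an inhibitor of fucosylation, by oral gavage, and its tumor cells had been exposed to 2FF before they were injected. The anti-PD-L1 mouse received an antibody that blocks the checkpoint ligand PD-L1 after day 9, and the mice labelled 2DG plus anti-PD-L1 or 2FF plus anti-PD-L1 received both agents. Animals were killed at day 30. The tissue label reads lymph node and the deposited design text speaks of young and aged mice, whereas the study's methods describe dissociated KPCA tumors. Both Krt8 and Krt18, keratins of epithelial tumor cells, had UMIs in only 5 to 42 cells of a library.

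IL-12 family cytokines are dimers: the p40 chain from Il12b pairs with the p35 chain from Il12a to form IL-12, or with the chain from Il23a to form IL-23, and the chains from Il27 and Ebi3 form IL-27. IL-12 is known for driving interferon-gamma in T and NK cells, and IL-27 for both promoting and restraining T cell responses. IL-15, shown to neighbouring cells on its receptor chain Il15ra, sustains NK cells and memory CD8+ T cells, and BAFF, the product of Tnfsf13b, sustains B cells. IL-6 and TNF are inflammatory cytokines of activated myeloid cells, and IL-10 restrains myeloid and T cell activation.

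The genes lie on mouse build GRCm38 at chr11:44400063-44414033 on the plus strand for Il12b, chr7:126589010-126594941 on the minus strand for Il27, chr17:55952640-55957022 on the plus strand for Ebi3 and chr8:82331632-82403222 on the minus strand for Il15. Tnfsf13b lies at chr8:10006467-10039072 on the plus strand, Il6 at chr5:30013114-30019981 on the plus strand, Tnf at chr17:35199381-35202007 on the minus strand and Il10 at chr1:131019845-131024974 on the plus strand. All 8 are protein coding. Apobr overlaps Il27, Gm16712 overlaps Ebi3 and Gm44789 overlaps Tnfsf13b, each on the other strand.

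The 250 bases before the RefSeq start (GRCm38.p6) are shown for Il6, Ebi3 and Tnf, the first pair because each held an NF-kB match at the same distance from the start, and Tnf as another inflammatory gene, whose window held a TATA box match only. Windows were at hand for 5 of the 8 genes (Il12b, Ebi3, Tnfsf13b, Il6 and Tnf). Sequences run 5′ to 3′ on the strand of the gene, and capitals mark the motif matches.
Il6, chr5:30012864-30013113, plus strand: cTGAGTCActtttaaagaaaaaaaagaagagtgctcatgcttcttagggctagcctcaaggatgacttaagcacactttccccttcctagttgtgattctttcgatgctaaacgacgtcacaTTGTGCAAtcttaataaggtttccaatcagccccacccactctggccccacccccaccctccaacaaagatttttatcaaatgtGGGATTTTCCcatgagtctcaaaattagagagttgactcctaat
Ebi3, chr17:55952373-55952622, plus strand: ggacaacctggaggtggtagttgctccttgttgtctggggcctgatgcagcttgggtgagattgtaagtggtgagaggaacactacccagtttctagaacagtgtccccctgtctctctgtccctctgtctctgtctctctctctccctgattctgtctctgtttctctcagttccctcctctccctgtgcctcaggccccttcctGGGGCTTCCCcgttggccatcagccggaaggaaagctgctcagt
Tnf, chr17:35202008-35202257, minus strand: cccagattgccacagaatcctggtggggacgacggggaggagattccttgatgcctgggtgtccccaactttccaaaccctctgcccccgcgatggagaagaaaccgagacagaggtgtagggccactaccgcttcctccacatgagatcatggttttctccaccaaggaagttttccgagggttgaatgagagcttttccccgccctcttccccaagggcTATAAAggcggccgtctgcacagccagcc
Capitals in Il6 mark, from left to right, an AP-1 match (TGANTCA) 249 to 243 bases before the start, a C/EBP match (TTGCNNAA) 128 to 121 bases before it and an NF-kB match 44 to 35 bases before it. Ebi3 held an NF-kB match at the same distance, 44 to 35 bases before the start, and Tnf held a TATA box match (TATAAA) 29 to 24 bases before it. Among 32536 promoter windows of the same length, searched on both strands, 7.28% held the NF-kB motif, 9.57% the C/EBP motif, 6.73% the AP-1 motif and 12.3% the TATA box. The IRF motif (GAAANNGAA), held by 7.15% of windows, was found in a second Tnfsf13b window together with an AP-1 match. The Il12b window held none of the 5 motifs.

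Libraries held 61859753 to 73885214 UMIs as deposited. The gate called 3680 to 7633 myeloid cells per library and left 7.16 to 10.7% of kept cells without a class. The control library stood apart in composition: 42.5% of its myeloid cells were neutrophils against 5.81 to 10.2% in the 5 treated libraries, and it held 442 T cells against 1992 to 3130. Pairs of libraries shared 16 to 34 cell barcodes. In 3.34 to 6.20% of myeloid cells of a library, 2 or more markers of a non-myeloid lineage had UMIs. No doublet caller was run. Levels are given in CPM, the UMIs of a gene per 1000000 UMIs of the same cells, with exact 95% Poisson intervals where shown, which cover counting error only. CPM is a share of the UMIs of a class and not a level per cell. Neutrophils had the lowest median depth of the myeloid classes in each library, at 2546 to 3816 UMIs per cell. An order of classes by CPM can therefore differ from the order per cell. Treatment, mouse and library cannot be told apart.

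Across the 6 libraries together, the classes that held most UMIs differed between the cytokines, with classical monocytes leading for 5 of the 8. Mature dendritic cells, the migratory Ccr7-positive stage, held 72.8% of the Il12b UMIs and type 1 dendritic cells another 15.4%. Classical monocytes held 75.0% of the Il6, 63.0% of the Il27, 46.4% of the Il10 and 36.4% of the Tnf UMIs. Neutrophils held 58.5% of the Il15 UMIs, and macrophages rich in C1q complement transcripts held 60.6% of the Tnfsf13b UMIs. Ebi3 UMIs were held by classical monocytes (28.1%), neutrophils (23.5%) and C1q macrophages (21.3%). Control had a larger neutrophil share than any treated library for each cytokine. For Tnf it was 39.6% against 8.60 to 16.3%, and for Il10 38.7% against 7.27 to 18.6%. Neutrophils held 86.0% of the Il15 UMIs of control and 8.74 to 24.2% in the treated libraries, in all 5 of which classical monocytes led with 34.6 to 68.6%. For Ebi3 the neutrophil share was 57.8% in control and 8.47 to 18.4% in the treated libraries. C1q macrophages led for Ebi3 in 2DG (20.8%) and 2FF (31.4%), and classical monocytes in the libraries given the antibody. These shares follow both the level per class and the number of cells in it.

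**Figure D1:**
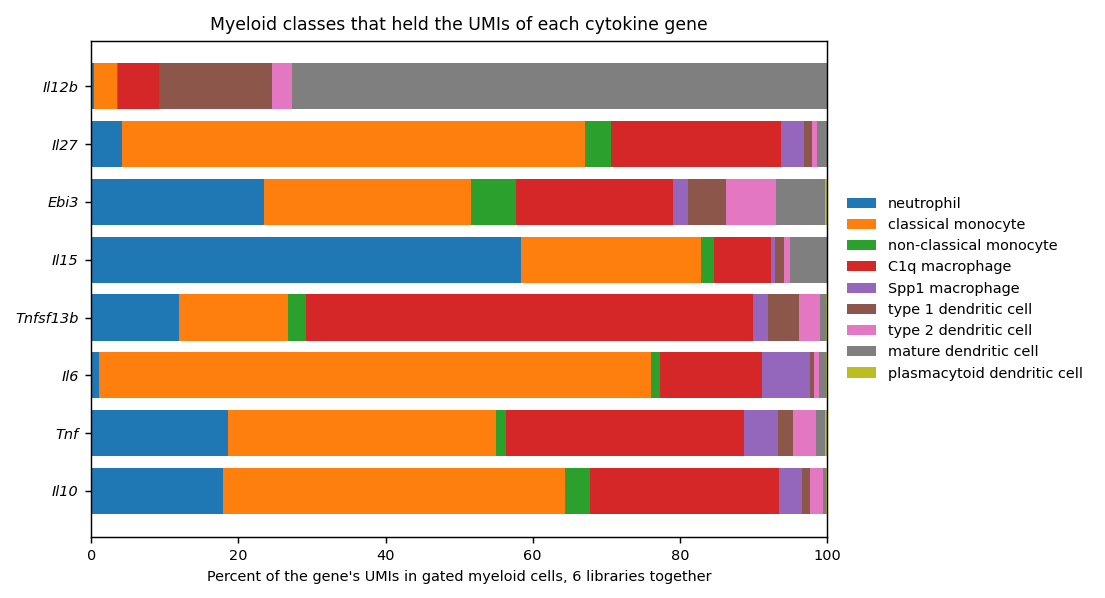
Share of the UMIs of each cytokine, in percent of all myeloid UMIs of that gene over the 6 libraries, held by each myeloid class. Mature dendritic cells held 72.8% of Il12b, neutrophils 58.5% of Il15 (86.0% in control), classical monocytes 75.0% of Il6 and C1q macrophages 60.6% of Tnfsf13b.

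Il12b was mainly a transcript of mature dendritic cells. Its level in mature dendritic cells was 317 CPM in control, 343 in 2DG, 154 in 2FF, 161 in anti-PD-L1, 284 in 2DG plus anti-PD-L1 and 205 in 2FF plus anti-PD-L1. The median of 245 CPM stood above the 22.7 CPM of type 1 dendritic cells, and the counting intervals of the 2 classes did not overlap in 6 of 6 libraries. Few cells carried these mRNAs. In mature dendritic cells a UMI of Il12b was seen in 34, 39, 17, 25, 9 and 6 cells of the 6 libraries in that order, and the 10 cells with the most UMIs held 80.6 to 100% of them. T cells, which are not known to make p40, held Il12b at 0 to 1.93 CPM (median 0.308), highest in 2DG plus anti-PD-L1. No UMI was seen in NK or B cells.

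Mature dendritic cells of control held 2.06-fold (95% interval 1.70 to 2.49) the Il12b of those of 2FF and 1.97-fold (1.65 to 2.37) that of anti-PD-L1. The 2DG library was within counting error of control, at 1.08-fold (0.938 to 1.25). In type 1 dendritic cells, which cross-present antigen to CD8+ T cells, control was at 66.9 CPM and the treated libraries at 42.1, 10.3, 27.0, 13.2 and 18.4 CPM. All 5 lay below the counting interval of control, with 11 to 105 UMIs against 121, and the 10 cells with the most UMIs held 98.1 to 100% of them. In control 6 of 101 type 1 dendritic cells held an Il12b UMI. In the treated libraries it was 12 of 161, 4 of 107, 7 of 129, 3 of 73 and 4 of 71 in order. The counting interval does not cover the spread between so few cells. One type 2 dendritic cell of 2FF held all 44 Il12b UMIs of that class in that library, so the level there is that of a single cell.

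Over all myeloid cells Il12b was at 8.58 CPM in control, 18.7 in 2DG, 6.90 in 2FF, 8.01 in anti-PD-L1, 5.60 in 2DG plus anti-PD-L1 and 4.17 in 2FF plus anti-PD-L1. The 2DG library was the highest, and its share of mature dendritic cells was also the highest, at 3.89% of myeloid cells against 1.45 to 3.03% in the others. Pooled Il12b in 2DG was 2.18-fold control (1.94 to 2.45), whereas with every class weighing the same the log2 ratio was −0.03. It was 3.34-fold higher in 2DG than in 2DG plus anti-PD-L1 (2.84 to 3.94). In mature dendritic cells alone these 2 libraries stood at 343 and 284 CPM. These levels came from 39 of 143 cells with an Il12b UMI in 2DG and 9 of 71 in 2DG plus anti-PD-L1.

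The partner chains of p40 had their highest levels in other classes. Il12a, the p35 chain, was at 0.623 to 1.24 CPM in the pool and was best seen in plasmacytoid dendritic cells, which make type I interferon, with UMIs in 47 of 171 such cells. No myeloid cell held both Il12b and Il12a, among 227 cells with Il12b and 145 with Il12a. Il23a was at 15.4 to 48.6 CPM in neutrophils and at 0 UMIs in the mature dendritic cells of 4 libraries, with 2 UMIs in 2FF and 1 in anti-PD-L1. Il23a had UMIs in 6 of the 227 cells with Il12b (2.64%), against 1.98% of cells without it. Il12a was seen in 0.486% of cells without Il12b, so that few cells with both could have been seen. With few UMIs per cell, a missing partner in a cell was below detection at this depth and was not shown to be absent.

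Il27, the p28 chain, was a monocyte transcript that was higher in every treated library than in control. In classical monocytes it stood at 8.70 CPM in control, 23.2 in 2DG, 35.0 in 2FF, 26.8 in anti-PD-L1, 33.5 in 2DG plus anti-PD-L1 and 39.0 in 2FF plus anti-PD-L1. Control was the lowest by a wide margin. The 2 libraries with 2FF were the highest in this class, with 2FF close to 2DG plus anti-PD-L1. The highest library was 2FF plus anti-PD-L1 in C1q macrophages (21.5 CPM) but 2DG plus anti-PD-L1 in neutrophils (23.1 CPM). In classical monocytes the level was 2.66-fold control (2.22 to 3.18) in 2DG, 4.03-fold (3.46 to 4.69) in 2FF and 3.08-fold (2.63 to 3.61) in anti-PD-L1.

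The share of classical monocytes with an Il27 UMI was 6.93% in control and 13.9 to 20.4% in the treated libraries. With each cell thinned to 2000 UMIs it was 1.91% against 4.48 to 6.81%. T cells, the background here, showed 0.226% in control and 0.972 to 1.81% in the treated libraries, with median depths of 5741 to 7528 UMIs per T cell and 6769 to 10351 per classical monocyte. The T cell share thus moved in the same direction as the monocyte share, and stayed far below it. Il27 was also above the counting interval of control in all 5 treated libraries in C1q macrophages, at 7.26 CPM in control against 15.6 to 21.5 CPM. Neutrophils gave 4.51 CPM in control against 12.5 to 23.1 CPM. Among lymphocytes, Il27 was at 0.305 to 3.44 CPM in T cells, 0 to 6.09 in NK cells and 2.03 to 8.31 in B cells. The control levels of C1q macrophages and neutrophils thus lay within the B cell range. In mature dendritic cells 2FF stood alone at 39.5 CPM, from 43 UMIs in 6 cells.

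Ebi3, the partner of p28, had a different distribution. Its level in neutrophils was 27.0 CPM in control, 52.3 in 2DG, 41.8 in 2FF, 46.1 in anti-PD-L1, 55.5 in 2DG plus anti-PD-L1 and 62.0 in 2FF plus anti-PD-L1. Control was the lowest, and 2DG was 1.93-fold control (1.5 to 2.46). Mature dendritic cells followed, with a median of 40.0 CPM, and neutrophils were higher without overlap of the intervals in 2 of 6 libraries. In control the order was reversed without overlap. Mature dendritic cells held 42.3 CPM there (30.8 to 56.8) against 27.0 CPM (24.6 to 29.6) in neutrophils. Over the 6 libraries together Ebi3 had UMIs in 617 of 4988 neutrophils and in 124 of 652 mature dendritic cells. By share of cells, mature dendritic cells thus stood above neutrophils. Classical monocytes held 3.73 CPM in control and 7.66 to 13.2 CPM in the treated libraries, with anti-PD-L1 at 3.44-fold control (2.72 to 4.38). T cells held Ebi3 at 4.07 to 8.57 CPM, so the monocyte level of control lay below the lowest T cell level, and that of 2DG lay within the T cell range. Over all myeloid cells Ebi3 stood between 12.4 and 16.6 CPM in the 6 libraries, and control, the lowest in both neutrophils and classical monocytes, held the most neutrophils.

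UMIs of both IL-27 chains fell in the same cell in 352 myeloid cells, which is 10.9% of 3218 cells with Il27 and 12.4% of 2835 cells with Ebi3. Ebi3 was seen in 9.26% of cells without Il27. In neutrophils 48 of 169 cells with Il27 also held Ebi3 (28.4%), against 11.8% of neutrophils without Il27. These shares, like those of the other gene pairs in this text, were not corrected for the depth of the cells.

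**Figure D2:**
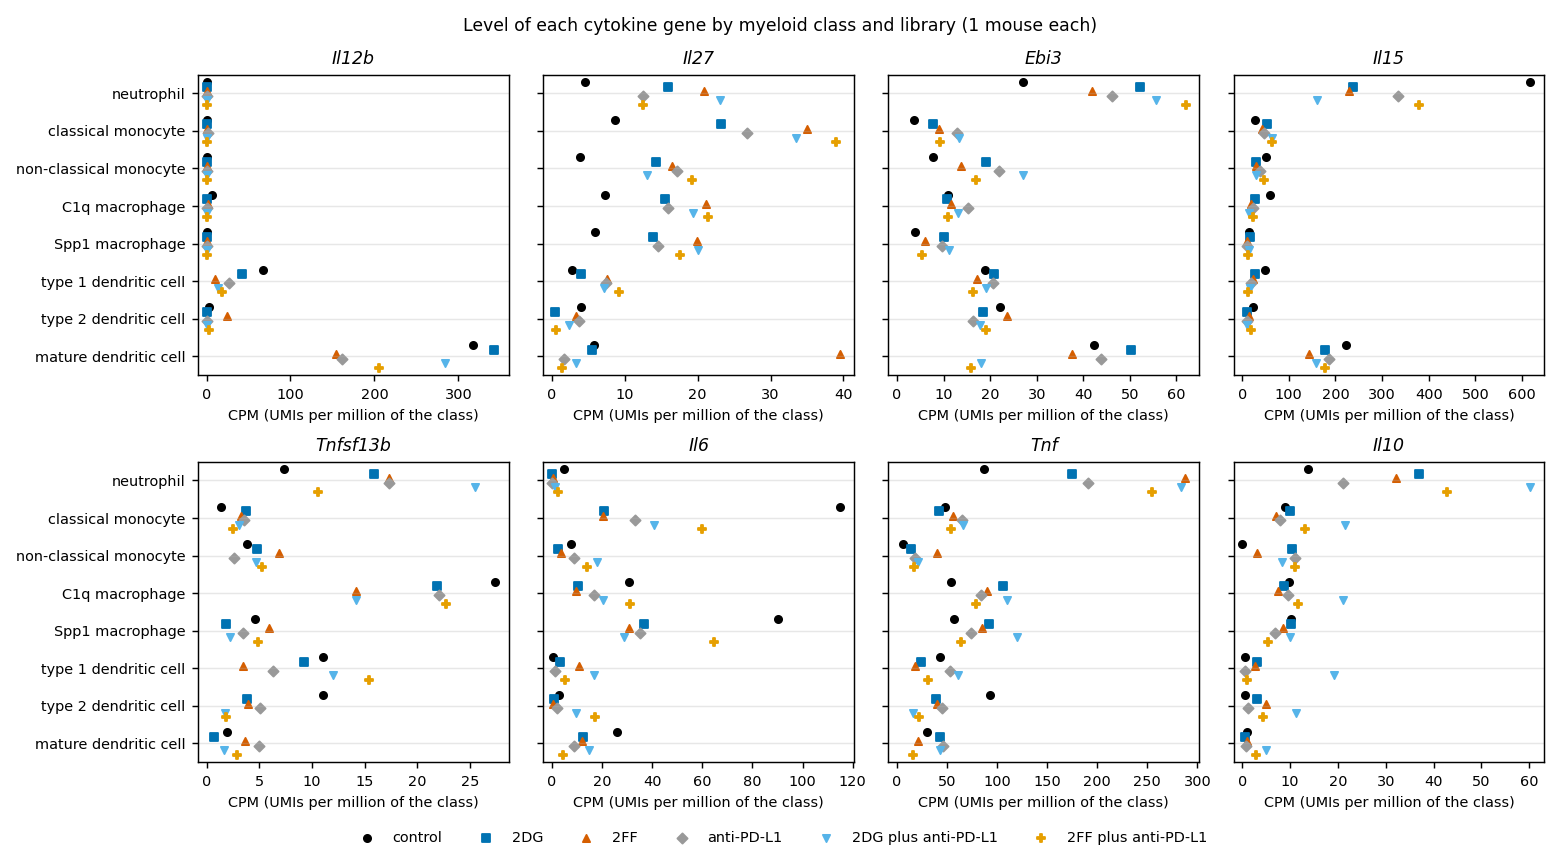
Level of each of the 8 cytokines in CPM (linear axis, own range per gene) in each myeloid class, with 1 point per library. In CPM, Il12b lies highest in mature dendritic cells (median 245 CPM), Il15, Tnf and Il10 in neutrophils (medians 285, 223 and 34.6 CPM) and Il27 in classical monocytes (median 30.2 CPM). CPM is a share of the UMIs of a class and not a level per cell.

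Il15 was led by neutrophils, and most of all by those of control. The neutrophil level was 618 CPM in control, 237 in 2DG, 229 in 2FF, 333 in anti-PD-L1, 161 in 2DG plus anti-PD-L1 and 379 in 2FF plus anti-PD-L1. Control was 2.60-fold (2.34 to 2.90) above 2DG, 2.70-fold (2.44 to 3.0) above 2FF and 1.85-fold (1.67 to 2.07) above anti-PD-L1. A UMI of Il15 was seen in 62.9% of control neutrophils and in 27.3 to 47.3% of those of the treated libraries, and after thinning to 2000 UMIs in 50.9% against 22.6 to 39.1%. T cells, the background here, were also highest in control, with 4.98% of cells and 14.3 CPM against 1.57 to 2.26% and 3.23 to 5.01 CPM in the treated libraries, and with median depths of 5741 to 7528 UMIs per T cell and 2546 to 3816 per neutrophil. Mature dendritic cells came next, at 222 CPM in control and 144 to 186 CPM in the treated libraries.

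The classes were ordered in opposite directions for Il15. In classical monocytes control was the lowest, at 27.1 CPM, against 52.5 in 2DG, 41.7 in 2FF, 46.3 in anti-PD-L1, 64.1 in 2DG plus anti-PD-L1 and 64.9 in 2FF plus anti-PD-L1. All 5 treated libraries lay above the counting interval of control, by 1.93-fold (1.73 to 2.16) in 2DG. In C1q macrophages control was the highest, as in neutrophils, with 60.2 CPM against 14.5 to 27.5 CPM, and type 1 dendritic cells held 48.7 CPM in control against 13.3 to 26.8 CPM. Whether the difference in direction between monocytes and neutrophils exceeds the spread between mice was not tested.

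Pooled over all myeloid cells, Il15 was at 197 CPM in control, 50.5 in 2DG, 40.3 in 2FF, 48.9 in anti-PD-L1, 45.0 in 2DG plus anti-PD-L1 and 61.5 in 2FF plus anti-PD-L1. The pooled level was thus 3.89-fold (3.70 to 4.10), 4.88-fold (4.63 to 5.15) and 4.02-fold (3.82 to 4.24) higher in control than in 2DG, 2FF and anti-PD-L1. With neutrophils left out, the log2 ratio of 2DG over control was 0.11 instead of −1.86, that of 2FF −0.22 instead of −2.15 and that of anti-PD-L1 0.07 instead of −1.90. Control held both the largest share of neutrophils, 42.5% of myeloid cells, and the highest neutrophil level, 618 CPM against 161 to 379 CPM. Leaving neutrophils out removes both at once, and the part of each in the pooled difference was not tested.

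IL-15 acts mainly as a complex with its receptor alpha chain on the same cell. Il15ra was highest in mature dendritic cells, at 196 to 274 CPM, and 307 of the 387 mature dendritic cells with an Il15 UMI also held Il15ra (79.3%), against 44.2% of those without. In neutrophils, which held most Il15 UMIs, 257 of 2675 cells with Il15 also held Il15ra (9.61%), against 7.61% of those without. Over all myeloid cells 1561 of 7033 cells with Il15 held both (22.2%), against 14.5% of cells without Il15. Il2rb, the beta chain through which T and NK cells receive IL-15, was at 409 to 642 CPM in T cells.

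Tnfsf13b, which encodes BAFF, differed little between the myeloid pools of the libraries and more within classes. The pool held 7.40 CPM in control, 9.97 in 2DG, 8.14 in 2FF, 8.30 in anti-PD-L1, 7.24 in 2DG plus anti-PD-L1 and 8.34 in 2FF plus anti-PD-L1. Its level in 2DG was 1.35-fold control (1.16 to 1.56), and in 2FF 1.1-fold (0.952 to 1.27). C1q macrophages led with 27.4 CPM in control, 21.9 in 2DG, 14.2 in 2FF, 22.1 in anti-PD-L1, 14.2 in 2DG plus anti-PD-L1 and 22.7 in 2FF plus anti-PD-L1. Neutrophils came next, at 7.31 CPM in control and 10.5 to 25.4 CPM in the treated libraries, above C1q macrophages in 2 of 6 libraries. In classical monocytes control was at 1.38 CPM, from 40 UMIs, and all 5 treated libraries lay above its counting interval, at 2.5 to 3.74 CPM. T cells held Tnfsf13b at 7.52 to 11.3 CPM and NK cells at 0 to 4.57 CPM. Only C1q macrophages lay above the T cell range in every library. Neutrophils of control, at 7.31 CPM, lay below that range, and the lowest treated neutrophil level lay inside it. Type 1 dendritic cells held 3.42 to 15.4 CPM, and the other classes did not exceed the highest T cell level. In B cells the BAFF receptor gene Tnfrsf13c was at 71.4 to 125 CPM.

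**Figure D3:**
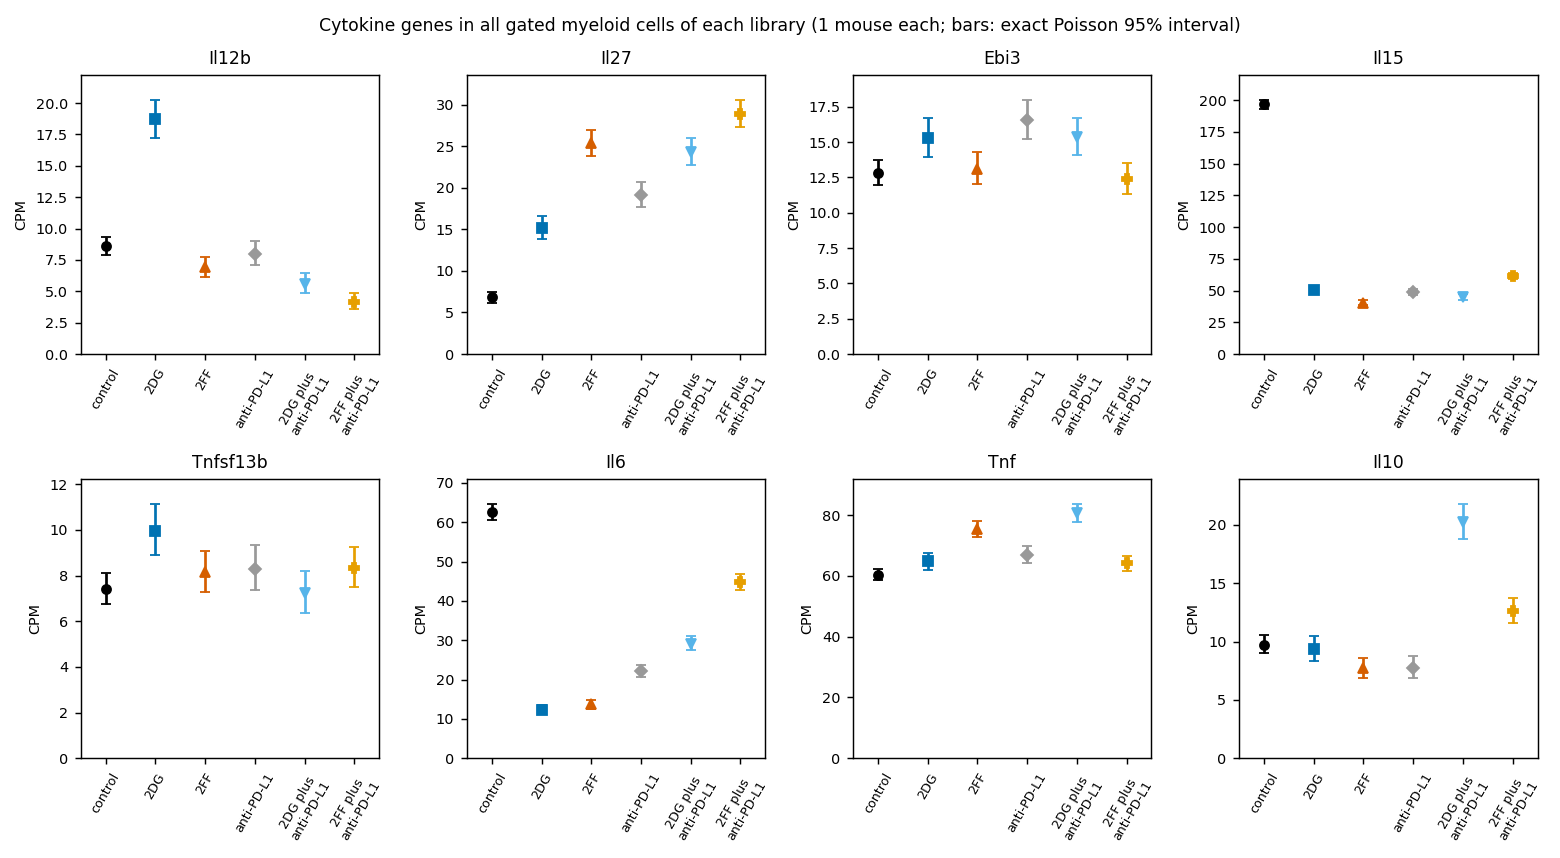
Level of each cytokine in CPM over all gated myeloid cells in each of the 6 libraries, with exact 95% Poisson intervals that cover counting error only. Control holds the highest Il15 (197 CPM) and Il6 (62.6 CPM) and the lowest Il27 (6.81 CPM), while Tnfsf13b lies between 7.24 and 9.97 CPM.

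Il6 was highest in control and lowest in the libraries given 2DG or 2FF without antibody. Classical monocytes held 115 CPM in control, 20.7 in 2DG, 20.3 in 2FF, 33.4 in anti-PD-L1, 40.8 in 2DG plus anti-PD-L1 and 60.02 in 2FF plus anti-PD-L1. All 5 treated libraries lay below the counting interval of control. Control was 5.53-fold (4.83 to 6.37) above 2DG, 5.65-fold (5.03 to 6.37) above 2FF and 3.44-fold (3.14 to 3.77) above anti-PD-L1. With the antibody on top of 2FF, the level was 2.96-fold (2.61 to 3.36) that of 2FF alone.

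The share of classical monocytes with an Il6 UMI was 19.5% in control, 6.54% in 2DG, 6.71% in 2FF, 9.87% in anti-PD-L1, 11.97% in 2DG plus anti-PD-L1 and 14.3% in 2FF plus anti-PD-L1. Control monocytes were also the deepest, at a median of 10351 UMIs against 6769 to 8223, and after thinning the shares were 10.3, 2.57, 2.86, 4.45, 5.63 and 6.42%, in the same order of libraries. T cells showed an Il6 UMI in 2.26% of cells in control and 0.279 to 0.803% in the treated libraries, and their level was likewise highest in control, at 13.7 CPM against 0.887 to 2.30. Macrophages rich in Spp1, a transcript of lipid- and matrix-handling tumor macrophages, held 90.2 CPM in control and 28.9 to 64.6 CPM in the treated libraries. C1q macrophages held 30.7 CPM in control and 31.2 in 2FF plus anti-PD-L1, against 9.52 to 20.6 CPM in the other 4 libraries. Classical monocytes and Spp1 macrophages had medians of 37.1 and 36.2 CPM, with monocytes the higher in 2 of 6 libraries, so their order was not settled.

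**Figure D4:**
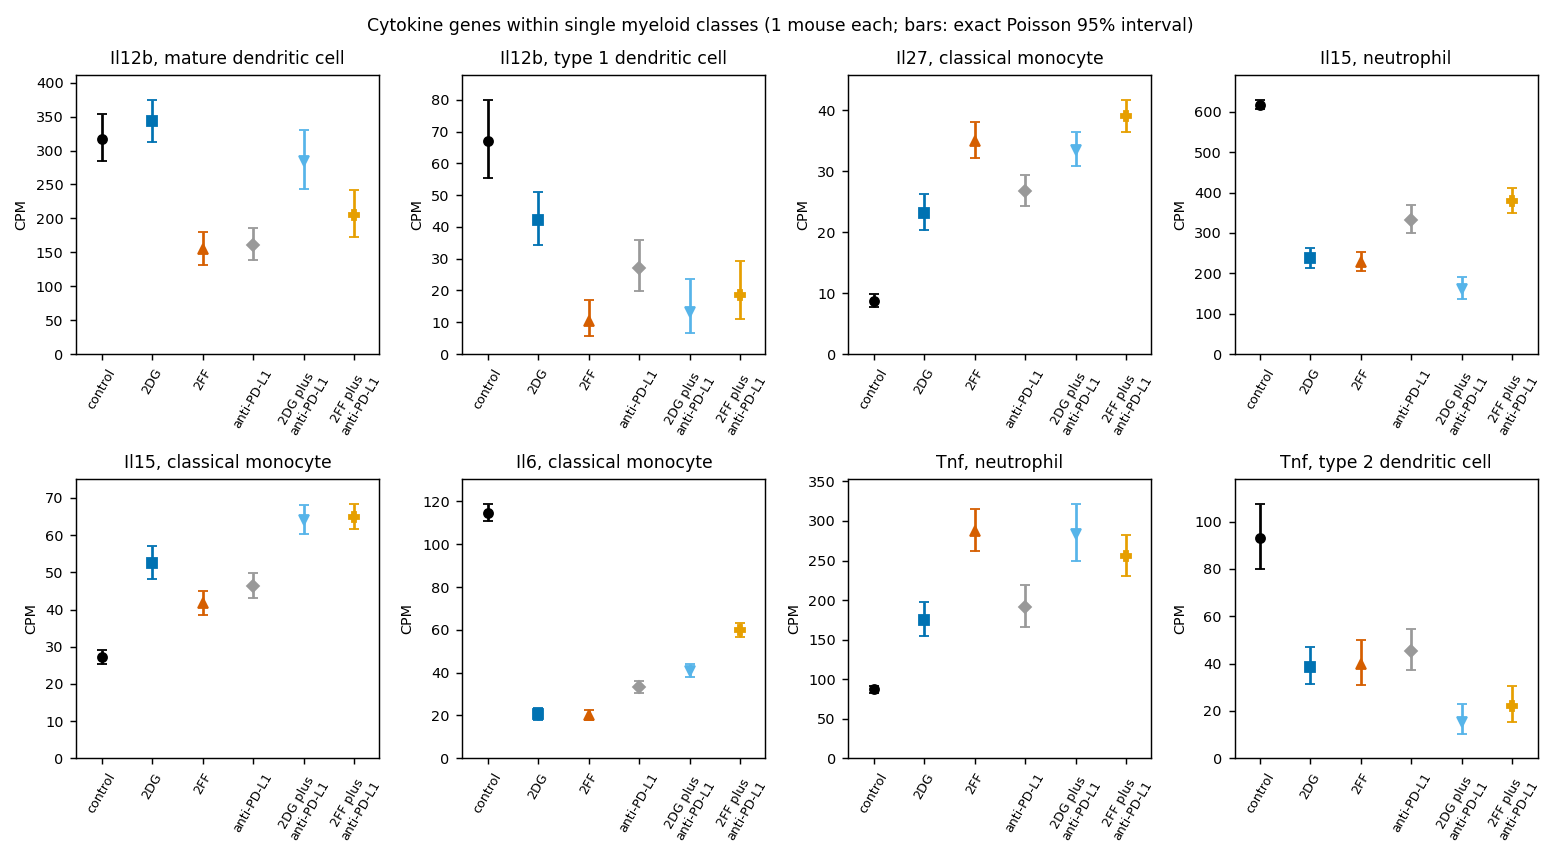
Level in CPM by library, with exact 95% Poisson intervals for counting error only, of Il12b, Il27, Il15, Il6 and Tnf in single myeloid classes, 1 class per panel. Control stands apart as the highest for Il6 in classical monocytes (115 CPM) and Il15 in neutrophils (618 CPM) and as the lowest for Il27 in classical monocytes (8.70 CPM) and Tnf in neutrophils (87.4 CPM).

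Tnf differed less between pools than within classes. The pool held 60.4 CPM in control, 64.8 in 2DG, 75.3 in 2FF, 67.0 in anti-PD-L1, 80.5 in 2DG plus anti-PD-L1 and 64.1 in 2FF plus anti-PD-L1. The pooled levels thus lay between 60.4 and 80.5 CPM. All 5 treated pools, at 64.1 to 80.5 CPM, lay above the counting interval of control (58.5 to 62.3 CPM). In CPM, neutrophils lay above C1q macrophages in 6 of 6 libraries. They held 87.4 CPM in control, 175 in 2DG, 288 in 2FF, 191 in anti-PD-L1, 283 in 2DG plus anti-PD-L1 and 255 in 2FF plus anti-PD-L1. All 5 treated libraries lay above control, by 2.00-fold (1.75 to 2.28) in 2DG, 3.29-fold (2.97 to 3.65) in 2FF and 2.19-fold (1.88 to 2.54) in anti-PD-L1. The share of neutrophils with a Tnf UMI was 16.4% in control against 25.1 to 36.1%, and 9.60% against 18.8 to 29.9% after thinning. Over the 6 libraries together a Tnf UMI was seen in 1075 of 4988 neutrophils and 2114 of 6271 C1q macrophages. The share of cells with Tnf was thus higher in C1q macrophages. Their cells were also deeper, with median depths of 8533 to 12019 UMIs against 2546 to 3816 in neutrophils. T cells, which make TNF themselves, held 36.6 to 46.3 CPM, and B cells held 0 to 19.9 CPM.

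In C1q macrophages Tnf was also lowest in control, at 53.5 CPM, against 106 in 2DG, 90.0 in 2FF, 83.6 in anti-PD-L1, 110 in 2DG plus anti-PD-L1 and 78.8 in 2FF plus anti-PD-L1. Type 2 dendritic cells, which present antigen to CD4+ T cells, were ordered the other way, with 92.9 CPM in control against 15.5 to 45.4 CPM and 26 to 108 UMIs in the treated libraries against 185. Control was 2.41-fold 2DG and 2.34-fold 2FF there. Classical monocytes lay between 42.3 and 66.4 CPM. Il6 and Tnf UMIs were found together in 736 of the 2328 myeloid cells with Il6 (31.6%), against 23.7% with Tnf among cells without Il6.

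Il10 was highest in the library given 2DG and the antibody together. The pool held 9.73 CPM in control, 9.38 in 2DG, 7.71 in 2FF, 7.74 in anti-PD-L1, 20.2 in 2DG plus anti-PD-L1 and 12.6 in 2FF plus anti-PD-L1. The level in 2DG plus anti-PD-L1 was 2.61-fold (2.26 to 3.02) that of anti-PD-L1 and 2.16-fold (1.88 to 2.48) that of 2DG. The same library was the highest in the 3 classes that held most Il10: 21.4 CPM against 7.01 to 13.2 in classical monocytes, 21.1 against 7.39 to 11.8 in C1q macrophages, and 60.1 against 13.8 to 42.9 in neutrophils. It was also the highest in type 1, type 2 and mature dendritic cells, from 3 to 19 UMIs, and not the highest in Spp1 macrophages or non-classical monocytes. In classical monocytes it was 2.68-fold (2.19 to 3.30) above anti-PD-L1. T cells held Il10 at 7.64 to 18.0 CPM, so the monocyte and macrophage levels of the other libraries did not exceed the highest T cell level (some T cell subsets make IL-10). Il10 and Tnf were found together in 549 of the 1551 myeloid cells with Il10 (35.4%), against 23.7% with Tnf among cells without Il10.

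For the comparisons over all myeloid cells, a gene was counted when its log2 ratio of CPM + 5 passed 2-fold, where both libraries summed to 50 or more UMIs of it. All 8 cytokines passed that limit in all 7 comparisons. For 2DG over control, 0 of the 8 were past 2-fold higher, against 1.89% of 14086 genes, and 2 were past 2-fold lower, Il15 and Il6, against 2.63% of genes. Il12b (2.18-fold) and Il27 (2.23-fold) exceeded 2-fold there without the 5 CPM added. For 2FF over control, Il27 was past 2-fold higher, against 1.88% of genes, and Il15 and Il6 were past 2-fold lower, against 2.56%. For anti-PD-L1 over control the same was found of Il27, against 1.96% of genes, and of Il15 and Il6, against 2.5%. These 3 comparisons share the control library, and with neutrophils left out Il15 no longer passed 2-fold in any of them. Without neutrophils Il27 in anti-PD-L1 over control was at 0.94 instead of 1.03, while Il6 stayed past 2-fold in all 3. The median log2 ratio of the 8 was 0.14, −0.08 and 0.02 in the 3 comparisons, beside 0.16, 0.10 and 0.13 over all genes tested.

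With the antibody in both libraries, 0 of the 8 passed 2-fold with 5 CPM added. For 2DG plus anti-PD-L1 against the antibody alone the background was 0.338% of genes higher and 0.3% lower. Il10 stood at 2.61-fold there without the 5 CPM added, and at a log2 ratio of 0.98 with it. For 2FF plus anti-PD-L1 against the antibody alone it was 0.312% higher and 0.216% lower. Il6 stood at 2.02-fold (1.86 to 2.20) in the latter without the 5 CPM added, and at a log2 ratio of 0.87 with it. When the antibody was added to 2DG, 0 of the 8 were past 2-fold higher, against 0.359% of genes, and 1 was lower, Il12b, against 0.636%. Without the 5 CPM added, Il10 (2.16-fold) and Il6 (2.36-fold) exceeded 2-fold higher there. When it was added to 2FF, 1 was higher, Il6, against 0.208% of genes, and 0 were lower, against 0.0817%. The median log2 ratios of the 8 were 0.08, 0.15, 0.15 and 0.09 in these 4 comparisons, beside −0.06, −0.08, −0.07 and −0.05 over all genes tested.

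**Figure D5:**
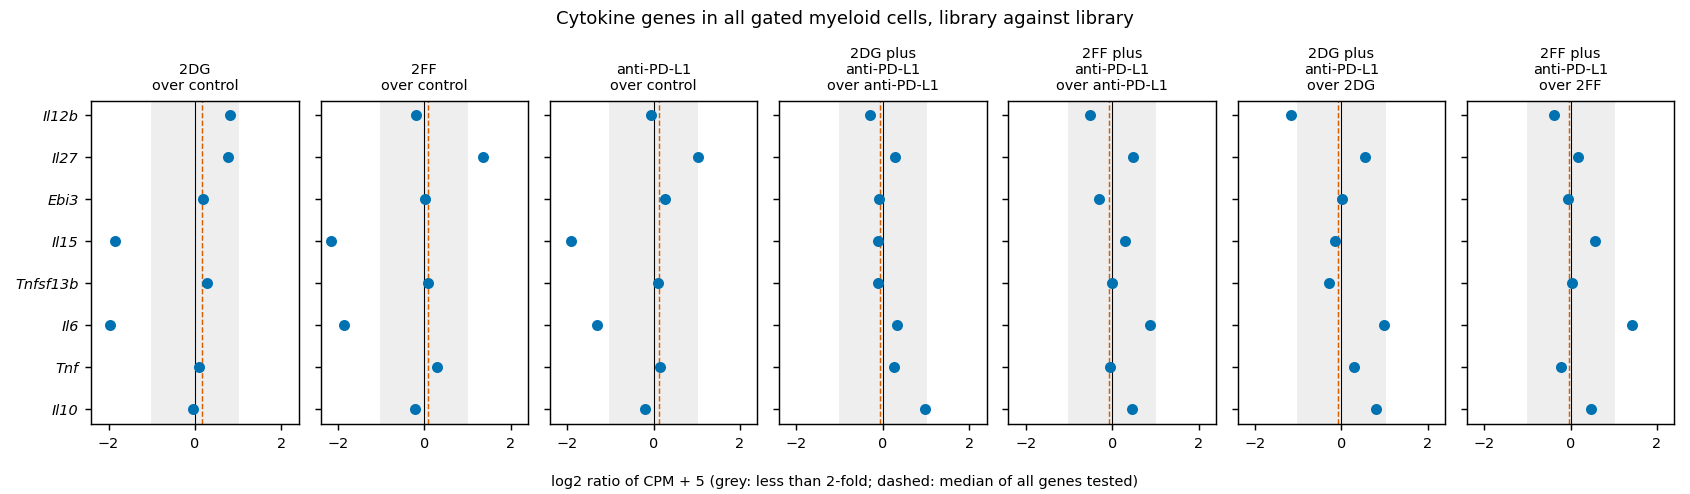
Log2 ratio (CPM + 5) of each cytokine over all gated myeloid cells in the 7 comparisons between libraries, with grey bands for less than 2-fold and dashed lines for the median of all genes tested. Il15 and Il6 lie left of the band in the 3 comparisons with control, Il27 right of it for 2FF (1.36) and anti-PD-L1 (1.03), and Il6 right of it for 2FF plus anti-PD-L1 over 2FF (1.41).

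With 5 CPM added, 0 of 4 partner and related ligands (Il12a, Il23a, Il18 and Tnfsf13) passed 2-fold either way in the 7 comparisons. Of all genes, 0.208 to 1.96% were past 2-fold higher and 0.0817 to 2.63% lower. Pooled Il23a was at 7.64 CPM in control, 1.74 in 2DG, 2.19 in 2FF and 2.22 in anti-PD-L1. Without the 5 CPM added, control was 4.38-fold (3.32 to 5.88), 3.49-fold (2.77 to 4.44) and 3.44-fold (2.70 to 4.44) higher. The part of the neutrophil share of control in this was not tested. Il18, an interferon-gamma-inducing cytokine of monocytes, ranged from 22.8 CPM in 2DG to 45.2 CPM in 2FF plus anti-PD-L1 in the pool. The median log2 ratio of the 4 was −0.10 in 2DG, 0.15 in 2FF and 0.01 in anti-PD-L1 over control.

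Of 15 receptor chains tested, 3 were past 2-fold higher in 2DG over control (Il12rb2, Il2rb and Il2rg), 2 in 2FF over control (Il2rb and Il2rg) and 3 in anti-PD-L1 over control (Il12rb2, Il2rb and Il2rg), and 0 were lower. Of all genes, 1.89, 1.88 and 1.96% were past 2-fold higher in these comparisons and 2.63, 2.56 and 2.5% lower. In the 4 comparisons with the antibody, 0 of 13 to 15 were past 2-fold, beside 0.208 to 0.359% of all genes higher and 0.0817 to 0.636% lower. Il12rb2, Il2rb and Il2rg are best known from lymphocytes: Il12rb2 was at 762 to 1183 CPM in NK cells and 53.4 to 179 CPM in T cells, and at 11.2 to 41.3 CPM in the myeloid pool. T cells were fewer in the control library, 442 against 1992 to 3130, and the part of their RNA in the myeloid values was not tested. The median log2 ratio of the receptor chains over control was 0.23, 0.31 and 0.35 in 2DG, 2FF and anti-PD-L1. Over all genes it was 0.16, 0.10 and 0.13. Il27ra, the receptor chain for IL-27, was at 45.4 to 65.3 CPM in T cells.

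Of 8 regulators of these cytokines, 2 were past 2-fold lower in 2DG over control, against 2.63% of all genes. They were Nfkbiz, an NF-kB cofactor for Il6 (881 CPM in control and 424 in 2DG), and Zfp36, which destabilises Tnf and other cytokine mRNAs. Nfkbiz was below control in 2FF and anti-PD-L1 too, at 460 and 517 CPM, with log2 ratios of −0.93 and −0.76. Zfp36 was also past 2-fold lower in anti-PD-L1 over control (−1.61), and higher in 2DG plus anti-PD-L1 over the antibody alone (log2 ratio 1.52) and over 2DG (1.04), and in 2FF plus anti-PD-L1 over the antibody alone (1.72), and no other of the 8 was past 2-fold. In the pool Zfp36 was at 1177 CPM in control, 537 in 2DG, 986 in 2FF, 383 in anti-PD-L1, 1110 in 2DG plus anti-PD-L1 and 1275 in 2FF plus anti-PD-L1. The 2DG and anti-PD-L1 libraries were low in T cells too, at 84.2 and 83.0 CPM against 179 to 218 CPM in the other 4. Zfp36 thus differed by library in lymphoid as well as myeloid cells, and its part in the cytokine levels was not tested. Of 4 STAT feedback genes, Socs1 was past 2-fold higher in 2FF over control, at 60.3 against 20.8 CPM, beside 1.88% of all genes. In the other 6 comparisons 0 of 4 passed with 5 CPM added. Socs1 was also higher over control in 2DG and anti-PD-L1, at log2 ratios of 0.94 and 0.95. Without the 5 CPM added it stood at 2.13-fold (1.98 to 2.30) and 2.16-fold (2.01 to 2.33) there. The median log2 ratio over control in 2DG, 2FF and anti-PD-L1 was 0.54, 0.39 and 0.62 for the regulators and 0.22, 0.59 and 0.43 for the feedback genes, beside 0.16, 0.10 and 0.13 over all genes.

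Over 48 sums of a class in a library, which share libraries and depth, the genes most like each cytokine were ranked by Pearson's r of log2(CPM + 5) among 11069 genes. Mab21l3 (r = 0.963), Slc22a23 (0.957) and Pakap (0.946) were most like Il12b. Crispld2 (0.906), Gm26535 (0.901) and Ankrd33b (0.875) were most like Il15, and Tnfaip2 (0.870), Gm21859 (0.863) and P2ry13 (0.832) most like Il10. Chst15 (0.866), Ddx6 (0.845) and Abhd2 (0.840) were most like Ebi3, and Pdlim7 (0.861), Klf7 (0.826) and Ralgds (0.816) most like Tnf. Likeness was lower for Il6, led by Rusc2 (0.824), Mt1 (0.809) and Gm15943 (0.807), for Il27, led by Rhou (0.745), C1rl (0.742) and Gbp9 (0.740), and for Tnfsf13b, led by Arhgap19 (0.745), Trpm2 (0.675) and Mvb12b (0.665).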

How the data were processed

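The authors sequenced 6 libraries of 1 mouse each (10x Chromium 3′) and deposited raw UMI count matrices made with Cell Ranger and the mm10 genome. The matrix headers give Cell Ranger 7.0.0, and the submitters' processing notes give 3.1.0. The deposited counts are whole UMIs per gene and cell, not normalized. From them, cells with under 250 genes or over 5% mitochondrial UMIs were left out here as the study's methods state. Each remaining cell took the class with the largest share of its markers detected, among 15 lists of 107 marker genes, with at least 3 markers detected and ties left without a class. Macrophages were split by whether Spp1 and Gpnmb UMIs outnumbered C1qa, C1qb and C1qc UMIs, and 828 of 7376 (11.2%) lay within 2-fold of that limit. Each myeloid class had 2 to 5 of its own markers and 0 of another class among its 10 leading genes. Because the same markers had assigned the cells, this count could not test the classes.

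UMIs were summed per class and library. Intervals are exact (Poisson for levels, Clopper-Pearson for shares, conditional binomial for folds) at 95% and cover counting error only. Since these 3′ counts were not scaled by length, levels were compared within a gene and not between genes. The text names the 8 cytokines, 32 genes in 4 lists of partners, receptors, regulators and feedback genes, and for each cytokine the 3 genes most like it among genes with at least 500 UMIs. The cytokines, lists and markers were chosen with earlier results of these data known. Ratios were tested before use on simulated counts that held counting error only. That test could not cover the spread between cells or mice, or differences in composition. Promoter sequences come from RefSeq (GRCm38.p6) and gene positions from the GRCm38 annotation. Results were recomputed under 12 alternative settings. Python 3.11.15, numpy 2.4.6, scipy 1.17.1 and pandas 2.3.3 were used.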

Additional observations from a re-analysis of the deposited data

Results flagged for a closer look

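Each value here is a log2 ratio (CPM + 5) between 2 libraries of 1 mouse each, set beside another ratio of the opposite direction. None of these differences was tested.

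Adding anti-PD-L1 to 2FF went with higher pooled Il6 (log2 ratio 1.41 over 2FF), whereas anti-PD-L1 given alone went with lower pooled Il6 (−1.31 over control). With neutrophils left out the ratios were 1.41 and −1.68.

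Tnf in 2FF over control was higher in neutrophils (1.66) and non-classical monocytes (2.07) and lower in type 1 (−1.04) and type 2 dendritic cells (−1.13). The value for non-classical monocytes rests on 3 UMIs in control, and its fold of 6.97 has a counting interval of 2.30 to 34.6.

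Tnf in 2DG plus anti-PD-L1 over 2DG was higher in type 1 dendritic cells (1.19) and lower in type 2 dendritic cells (−1.09). These rest on 51 against 60 UMIs in type 1 and 26 against 100 UMIs in type 2 dendritic cells, and in each of these 4 values the 10 cells with the most UMIs held 46.0 to 68.6%.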

How the results depend on the processing

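Of 671 recomputed cytokine ratios (56 ratios, 12 alternatives), 538 stayed inside the counting interval of the reported value, 131 moved outside it and 2 past 2-fold reversed: pooled Il15 with neutrophils left out, to 0.109 in 2DG and 0.0671 in anti-PD-L1 over control. In all, 40 had the opposite sign, among them with each class weighing the same Il12b in 2DG plus anti-PD-L1 over the antibody alone (−0.30 to 0.56) and Il10 in 2DG over control (−0.04 to 0.55). Of 84 recomputed counts of cytokines past 2-fold, 69 stayed within 1.5 times. In 2DG over control the count of 2 became 1 with each class weighing the same or without neutrophils, and 4 with 1 CPM added (Il12b and Il27 more). In anti-PD-L1 over control 3 became 1 with each class weighing the same or without neutrophils. In 2DG plus anti-PD-L1 over 2DG 1 became 2 without cells holding markers of another lineage, with each cell weighing the same, with cells thinned to 2000 UMIs or with the median of all genes set to 0, 3 with 1 CPM added and 0 with each class weighing the same. In 2FF plus anti-PD-L1 over 2FF 1 became 0 with each class weighing the same. In 2DG plus anti-PD-L1 over the antibody alone 0 became 1 (Il10) with 1 CPM added, with centring, or without the 10 cells with the most UMIs of each cytokine, an alternative chosen after seeing the data. The cause was not tested. Within a comparison of 2 groups no paired analysis was possible, because each group holds 1 library and the replicate number pairs nothing. For the same reason no library could be left out within a group. A fit of the antibody over the 3 backgrounds would pair libraries with and without it and assume an additive effect. It was not run. In dendritic cells few cells carried these UMIs, and 10 cells often held most of them.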
